A study of Mus musculus with 14 samples.

Results

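The genes described here are 3 Notch receptors (Notch1, Notch2 and Notch3), 5 of their ligands (Dll1, Dll3, Dll4, Jag1 and Jag2) and Rbpj, 9 of the 22367 protein-coding genes of the annotation used. For each gene, every acetylated region of the E14 retina that overlapped the gene body or the 50 kb on either side of it was collected, which gave 25 of the 13463 regions (peaks) in the list. The farthest peak taken in lay 48.7 kb from the gene record of Notch1, with a pileup of 16.78, and the nearest one left out lay 54.6 kb from Dll4, with a pileup of 9.64. The study profiled chromatin and transcripts of mouse retinal progenitors at an embryonic and a post natal stage, with and without the LIM homeodomain factor LHX2. Its E14 H3K27ac ChIP-Seq used CD1 mice at embryonic day 14. It is labelled as retinal progenitor cells, but the methods describe whole dissected retinas, so that differentiating neurons and any other cells of the dissected tissue contributed along with progenitors. Chromatin was precipitated with an antibody to histone H3 acetylated at lysine 27, a mark of active promoters and enhancers, and set against 1 isotype control library. The 2 replicate ChIP libraries had been pooled before peaks were called, so no value below has a replicate error, no test of a difference between peaks was made, and ranks and shares are given as descriptions. Fewer cells with acetylated chromatin and less acetylation per cell cannot be told apart in such a sample. No Lhx2 mutant, sorted cell fraction or post natal sample entered these values.

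Notch receptors are transmembrane proteins that are activated by the Delta-like and Jagged ligands of neighbouring cells. Cleavage by an ADAM protease and then by gamma-secretase frees the intracellular domain, which enters the nucleus, binds the DNA-binding protein RBPJ and recruits Mastermind co-activators to genes such as those of the Hes family. In the developing retina this lateral signalling keeps neighbouring cells in the progenitor state while ligand-expressing cells differentiate, and later favours the glial fate.

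After removal of duplicates, 113543038 ChIP tags and 9210563 control tags were left, which were 71.3% and 33.2% of those aligned, and MACS2 scaled the ChIP pileup to the smaller control. Pileup is the mean number of fragments over a peak on that scale, with a median of 15.1 and a range of 6 to 40.2 over all peaks, the median peak length was 1015 bp, and the median fold enrichment over the local control was 4.46. Peaks with no transcription start site (TSS) of any gene within 1 kb were shorter, with a median of 801 bp, and lower, with a median pileup of 9.9, than the 10302 peaks at a TSS of a protein-coding gene, which had medians of 1080 bp and 16.3. By marker genes, and beside 49.8% of all protein-coding genes, 7 of 7 genes of progenitors and 4 of 4 of ganglion cells had a TSS peak. It was 2 of 4 for amacrine and horizontal cells (Onecut1 and Prox1 with one) and 1 of 3 for photoreceptors (Otx2 with one, Crx and Rcvrn without). It was 0 of 3 of the pigment epithelium (Mitf, Tyr and Rpe65), 0 of 3 of mural cells, 0 of 3 of microglia, 0 of 2 of the lens and 0 of 2 each of liver and muscle. Of 4 vascular markers 1, the receptor gene Kdr, had a TSS peak, and Pecam1, Cdh5 and Tek had none. A peak at a promoter does not measure transcription, and the share of each cell type in the tissue was not measured.

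Of the 25 peaks, 6 lay at a TSS of the member itself, 12 at the TSS of a neighbouring gene and 7 within 1 kb of no annotated TSS. These 7, at Notch1, Dll1, Dll4 and Rbpj, were 28% of the peaks, beside 21.2% of all peaks in the list as deposited. Those at Notch1 and Rbpj and those 11.1 kb and 2.75 kb upstream of Dll4 were lost at a false discovery rate cut-off of 0.01. That left 21 of the 25 peaks, and the share of 28% does not hold there. To let the regions be seen, stretches of 250 bases from 4 of the 7 are printed below in the direction of the gene, from mm9. They were chosen as the stretch with the most matches to 5 short motifs, and the matches are in capitals. The motifs were TGGGAA (the core bound by RBPJ), TAATTA (homeodomain factors such as LHX2), CAGCTG and CAGATG (E-boxes of proneural bHLH factors) and ACAAT (SOX factors), each read on both strands, and none of them contains another.
Notch1 intron 2, chr2:26342380-26342629, minus strand: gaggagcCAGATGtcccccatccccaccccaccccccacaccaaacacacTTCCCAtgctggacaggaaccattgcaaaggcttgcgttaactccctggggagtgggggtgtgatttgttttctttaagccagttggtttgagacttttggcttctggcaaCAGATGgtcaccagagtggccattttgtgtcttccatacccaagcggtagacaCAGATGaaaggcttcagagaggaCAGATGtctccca
Dll1 upstream, chr17:15517970-15518219, minus strand: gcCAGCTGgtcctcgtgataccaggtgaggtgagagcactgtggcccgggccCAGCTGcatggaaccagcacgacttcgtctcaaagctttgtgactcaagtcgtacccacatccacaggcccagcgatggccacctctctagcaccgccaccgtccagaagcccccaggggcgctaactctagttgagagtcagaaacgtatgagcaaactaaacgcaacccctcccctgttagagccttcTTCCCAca
Dll4 upstream, chr2:119139703-119139952, plus strand: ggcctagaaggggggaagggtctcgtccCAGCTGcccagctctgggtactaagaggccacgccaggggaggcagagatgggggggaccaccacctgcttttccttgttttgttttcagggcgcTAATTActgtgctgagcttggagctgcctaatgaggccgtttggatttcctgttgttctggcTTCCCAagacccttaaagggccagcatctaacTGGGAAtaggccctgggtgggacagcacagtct
Dll4 downstream, chr2:119163332-119163581, plus strand: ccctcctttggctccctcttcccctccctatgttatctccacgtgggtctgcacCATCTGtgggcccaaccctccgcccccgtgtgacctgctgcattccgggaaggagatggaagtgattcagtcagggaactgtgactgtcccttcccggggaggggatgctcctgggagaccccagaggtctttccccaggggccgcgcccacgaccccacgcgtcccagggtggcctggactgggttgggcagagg

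Promoters of 4 ligand and receptor genes are shown next because their CpG content and their acetylation did not always go together. Each line gives the 200 bases before the TSS of the transcript with the longest coding sequence, from mm9 in the direction of the gene, with every CG in capitals.
Notch2, TSS peak present, chr3:97817261-97817460, plus strand: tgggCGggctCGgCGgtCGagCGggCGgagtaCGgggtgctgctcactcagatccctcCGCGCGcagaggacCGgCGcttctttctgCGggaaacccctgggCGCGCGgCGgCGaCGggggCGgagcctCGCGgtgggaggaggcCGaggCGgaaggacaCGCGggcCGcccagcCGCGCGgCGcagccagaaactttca
Jag1, TSS peak present, chr2:136942381-136942580, minus strand: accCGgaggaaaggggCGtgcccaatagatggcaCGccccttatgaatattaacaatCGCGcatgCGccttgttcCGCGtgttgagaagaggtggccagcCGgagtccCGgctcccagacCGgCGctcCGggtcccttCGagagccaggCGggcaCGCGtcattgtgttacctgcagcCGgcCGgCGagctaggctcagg
Jag2, no TSS peak, chr12:114167707-114167906, minus strand: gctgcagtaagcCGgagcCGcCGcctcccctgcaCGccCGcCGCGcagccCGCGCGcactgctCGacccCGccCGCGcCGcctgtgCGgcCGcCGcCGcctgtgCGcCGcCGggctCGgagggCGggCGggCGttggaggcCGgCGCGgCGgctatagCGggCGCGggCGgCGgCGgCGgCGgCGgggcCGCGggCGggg
Dll4, no TSS peak, chr2:119151320-119151519, plus strand: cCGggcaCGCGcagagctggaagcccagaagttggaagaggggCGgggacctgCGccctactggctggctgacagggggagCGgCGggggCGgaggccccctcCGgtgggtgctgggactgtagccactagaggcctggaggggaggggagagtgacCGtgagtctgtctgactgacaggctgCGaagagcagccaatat

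The first question was which of the genes carried acetylation at a start site. A TSS peak, defined as a peak within 1 kb of any annotated TSS of the gene, was present at 6 of the 9 genes, beside 49.8% of all protein-coding genes (95% Wilson interval 49.2 to 50.5%, which covers counting error only). All 3 receptors had one, as did Dll1, Jag1 and Rbpj, whereas Dll3, Dll4 and Jag2 had none. For 9 genes a share of 6 is close to the background, so the count alone sets the group apart little. Only 4 genes, Notch2, Notch3, Dll1 and Jag1, had a peak at the 5′ end of the gene record itself, beside 47.5% of all protein-coding genes, because the peaks of Notch1 and Rbpj sat at start sites farther inside the record. All 9 genes had at least 1 peak somewhere in their window, beside 72.1% of protein-coding genes. High-confidence peaks were taken as those with a fold enrichment of 4 or more whose false discovery rate did not exceed 0.001, without regard to replicates. Among these the TSS peaks of Notch2 and Notch3 were lost and those of Notch1, Dll1, Jag1 and Rbpj stayed. These 4 of 9 genes stood beside 37.8% of protein-coding genes with a high-confidence peak at a TSS.

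**Figure D1:**
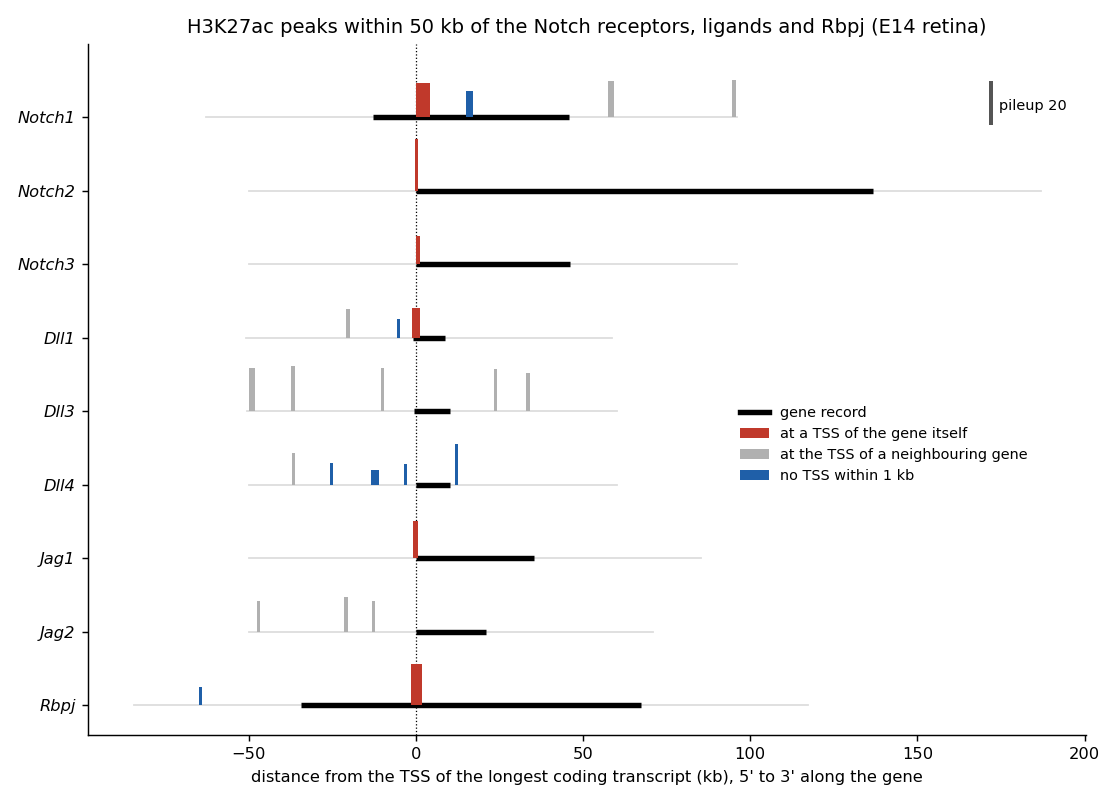
Peaks in the windows of the 9 genes, placed by distance in kb from the TSS of the transcript with the longest coding sequence, with each gene drawn 5′ to 3′; bar height is the mean pileup (the grey bar at the upper right stands for a pileup of 20), narrow bars are widened to stay visible, thin lines are the windows and thick lines the gene records. Notch2, Notch3 and Jag1 have 1 peak each, at the start site, whereas Dll4 has 4 peaks away from any TSS and none at its own.

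Among the receptors, Notch1, the main Notch receptor of neural progenitors, had the longest peak of the group. Its TSS peak spanned chr2:26355208-26359294 on mm9, 4087 bp, which was rank 120 by length among all 13463 peaks, while its pileup of 15.65 was at the 54.5th percentile and its fold enrichment of 4.07 at the 36.1th. The peak lay wholly inside the gene: it began 48 bp downstream of the TSS of the longest coding transcript (position 26359342, minus strand) and ran to 4134 bp downstream, over exon 1, intron 1, exon 2 and part of intron 2. The gene record of Notch1 starts 12.8 kb farther upstream, with other coding transcripts, and no peak lay there. A further peak of 2216 bp was present in intron 2 at chr2:26342119-26344334, 15.0 kb downstream of the same TSS, with a pileup of 11.82 and a fold enrichment of 3.14. It was long (93.0th percentile) and low (3.76th percentile by fold enrichment), its GC content was 57.8%, and its CpG observed/expected ratio of 0.184 was exceeded by most peaks (3.77th percentile). Notch1 was thereby the only 1 of the 9 genes with an intragenic peak more than 1 kb from each of its own start sites, beside 5.41% of all protein-coding genes. This count rested on a single peak that was not high-confidence, with a false discovery rate of 0.0147, and the peak was lost at a cut-off of 0.01. Downstream of Notch1, the peaks at chr2:26300067-26301889 (Sec16a and 0610009E02Rik) and chr2:26263700-26264689 (Inpp5e) lay at the start sites of those genes.

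Notch2, a receptor with a structure like that of Notch1, had the opposite shape. Its single peak in a window of 236.8 kb, chr3:97817447-97818025, was 579 bp long (19.7th percentile) and had a pileup of 23.66, rank 521 of all peaks. By fold enrichment it stood low, at 3.34 and the 8.91th percentile. The control level implied by pileup and fold enrichment was 6.38 there, at the 99.7th percentile of all peaks, beside a median of 2.36, and the part of the high control in the pileup was not tested. Nearly all of the peak, 97.6%, lay downstream of the TSS at 97817461, over exon 1 and the start of intron 1.

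Notch3, a receptor best known from vascular mural cells and also expressed in neural progenitors, had the lowest pileup of the 6 TSS peaks. The peak covered chr17:32302654-32303893, 1240 bp, with a pileup of 13.06 (35.7th percentile) and a fold enrichment of 3.61 (18.2th percentile). It was the only peak in the Notch3 window, and 94.5% of it lay downstream of the TSS at 32303825. The mural markers Pdgfrb, Rgs5 and Acta2 had no TSS peak in this list, and the part of mural cells in the Notch3 peak was not tested.

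**Figure D2:**
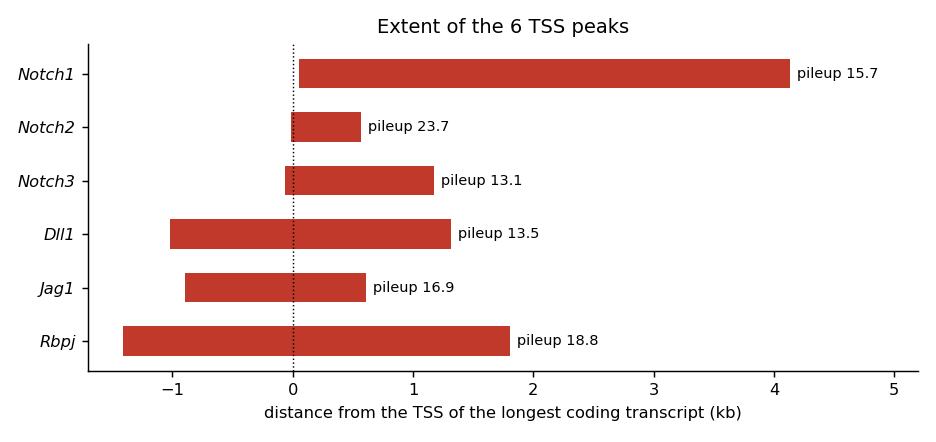
Extent of the TSS peaks of Notch1, Notch2, Notch3, Dll1, Jag1 and Rbpj in kb from the TSS of the transcript with the longest coding sequence (dotted line), positive values lying inside the gene, with the mean pileup printed beside each bar. The peaks of the 3 receptors lie almost wholly downstream of the TSS, and those of Dll1, Jag1 and Rbpj extend to both sides.

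The position of the TSS peaks thus differed within the group. In the receptors the share of the peak downstream of the start site was 97.6% and 94.5% for Notch2 and Notch3, and the Notch1 peak began beyond it. For the other genes the shares were 56.2% at Dll1, 40.4% at Jag1 and 56.1% at Rbpj. Over 8656 pairs of a protein-coding gene and a peak that covered its start site the median share was 59.6%, so Dll1 and Rbpj were close to the usual position and Jag1 reached farther upstream. With 1 list, the difference between receptors and the other genes could not be tested.

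Among the ligands, Dll1, expressed by cells leaving the progenitor state, had a broad promoter peak and a small upstream one. The promoter peak, chr17:15511629-15513960, was 2332 bp long (94.0th percentile), with a pileup of 13.47 and a fold enrichment of 4.18. It also lay within 1 kb of a start site of the non-coding gene A930024N18Rik, so that its acetylation cannot be assigned to Dll1 alone. The upstream peak, chr17:15517725-15518464, lay 4.79 kb from the TSS and had 740 bp and a pileup of 8.62 (9.21th percentile). A peak at chr17:15532791-15533742, 19.9 kb upstream, belonged to the start site of Fam120b.

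Jag1, a ligand of the Jagged class, had 1 peak in its window and it was an ordinary promoter peak. It spanned chr2:136941771-136943279, 1509 bp, with a pileup of 16.92 and a fold enrichment of 4.55, at the 63.7th and 53.0th percentiles. No other peak fell within 50 kb of this gene of 35189 bp, and the peak covered exon 1 and the start of intron 1.

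Dll4, a ligand used by early retinal precursors and by endothelial tip cells, had no TSS peak but was surrounded by peaks away from promoters. The nearest, chr2:119148097-119148774, ended 2.75 kb upstream of its start site, with 678 bp and a pileup of 9.3. At chr2:119138137-119140405, 11.1 kb upstream, a peak of 2269 bp had a pileup of 6.72, at the 1.30th percentile of all peaks and the 93.5th by length. The farthest upstream of those without a TSS, chr2:119125710-119126639, lay 24.9 kb away with 930 bp and a pileup of 10.13. These 3 peaks were faint, with fold enrichments of 3.50, 3.52 and 3.39 and false discovery rates of 8.28e-03, 3.06e-02 and 1.62e-02 in the order from the farthest to the nearest, and none was high-confidence. A peak downstream of the gene stood apart from them: chr2:119163332-119163974, 11.8 kb from the start site, was short (643 bp) and had a pileup of 18.68, a fold enrichment of 6.67 (92.8th percentile) and a false discovery rate of 1.23e-10. Its GC content of 69.4% (88.4th percentile of all peaks) was above the medians of both TSS peaks, 61.6%, and peaks away from start sites, 53.3%. Its CpG observed/expected ratio of 0.7 was nearer to the median of TSS peaks, 0.754, than to that of peaks away from start sites, 0.335, and no start site is annotated there. It was the only high-confidence peak of the 7 without a TSS. The remaining peak of the window, chr2:119114497-119115231, lay 36.3 kb upstream at the start site of Vps18, with 735 bp, a pileup of 14.68 and a fold enrichment of 5.81, and was high-confidence. Having 4 peaks away from any TSS placed Dll4 with 0.398% of protein-coding genes in the list as deposited, but 3 of the 4 were not high-confidence, and those at 11.1 kb and 2.75 kb upstream were lost at a false discovery rate cut-off of 0.01. Peaks away from a TSS were present in the windows of 4 of the 9 genes (Notch1, Dll1, Dll4 and Rbpj), beside 17.8% of protein-coding genes, in the list as deposited. The only such peaks at Notch1 and Rbpj, with false discovery rates of 0.0147 and 0.0178, were also lost at the cut-off of 0.01. Among high-confidence peaks only Dll4 kept one. Of 4 vascular markers, 3 had no TSS peak, and the part of endothelial cells in the Dll4 peaks was not tested.

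Dll3, a divergent ligand that acts inside the cell on Notch signalling, had no peak of its own in a window with 5. The nearest, chr7:29096271-29097036, lay 9.47 kb upstream at the start site of Timm50. The others lay at the start sites of Eid2 (pileup 17.22), Eid2b (19.33), Supt5h (20.48) and Rps16 with SNORA40 (19.76). All 5 were high-confidence peaks, and Supt5h, which encodes an elongation factor subunit, had a fold enrichment of 7.32, at the 96.6th percentile. The dense acetylation around Dll3 therefore belonged, by position, to promoters of its neighbours.

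Jag2, the other Jagged ligand, likewise had no peak of its own, although it had the promoter with the most CpG of the group. The 200 bases before its TSS hold 42 CG, against 31 in Notch2, 20 in Jag1 and 11 in Dll4. The median was 15 for protein-coding genes with a TSS peak and 2 for those without. In the 1 kb around the TSS the CpG observed/expected ratio of Jag2 was 1.07 and the GC content 77.4%, both at the 99.6th percentile of protein-coding genes. Of the 412 genes with a ratio from 1.0 to 1.1, 94.7% had a TSS peak, and Jag2 was among the 22 that did not. The nearest peak lay 12.3 kb upstream, at the start site of Nudt14 (pileup 13.85), and those of Gm17274 (15.66) and Btbd6 (14.13) were farther away. The genome sequence has 0 unknown bases within 5 kb of the Jag2 TSS. Whether reads could be mapped uniquely there, or were lost in the library at this GC content, was not tested.

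**Figure D3:**
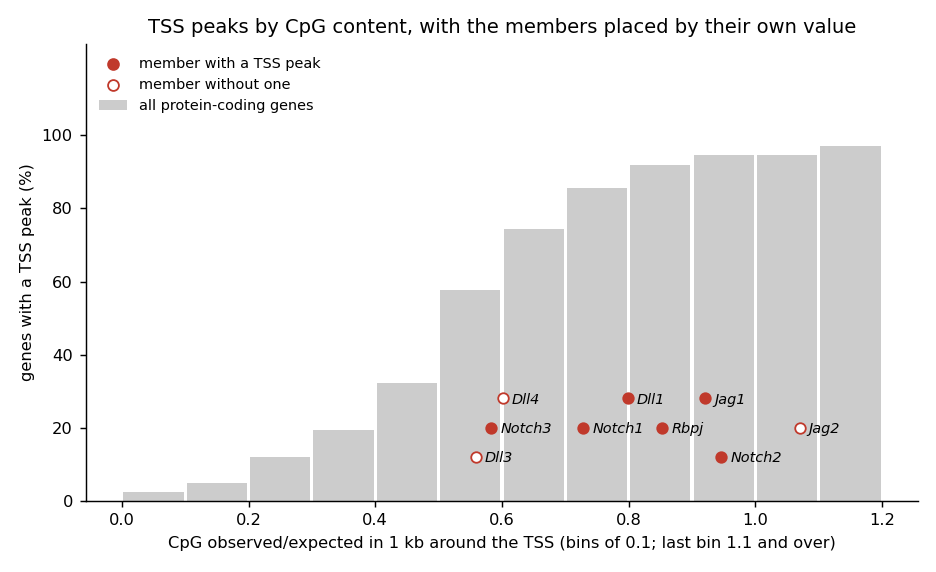
Share of protein-coding genes with a TSS peak (grey bars, percent) by the CpG observed/expected ratio in the 1 kb around the TSS, in bins of 0.1, with the 9 genes placed at their own ratio (the height of the points carries no value); filled points have a TSS peak and open points none. The share rises from 2.45% in the lowest bin to 94.7% in the bin of Jag2, which has none, and Dll3 and Dll4 lie in the middle bins, where 57.6% and 74.3% of genes have one.

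The other genes without a TSS peak were less unusual by this measure. The ratio was 0.559 at Dll3 and 0.601 at Dll4, in bins where 57.6% and 74.3% of protein-coding genes had a TSS peak. Notch3, with 0.583, had a peak at a ratio between these. At Notch1, Dll1, Rbpj, Jag1 and Notch2, which all had a TSS peak, it ran from 0.728 to 0.946. The median was 0.757 for all genes with a TSS peak and 0.241 for those without. For protein-coding genes without a TSS peak the median distance from the start site to the nearest peak was 78.8 kb, so Dll4 (2.75 kb), Dll3 (9.47 kb) and Jag2 (12.3 kb) were all nearer to a peak than that. For Dll3 and Jag2 that peak was at the start site of a neighbour, Timm50 and Nudt14, and for Dll4 it had no TSS within 1 kb.

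Rbpj, the DNA-binding partner of the Notch intracellular domain, had the highest fold enrichment of the 6 TSS peaks. The peak covered chr5:53980043-53983259, 3217 bp, rank 278 by length, with a pileup of 18.76 and a fold enrichment of 5.14, at the 76.8th and 70.0th percentiles. It lay over the start sites at 53981454 and 53981813, 34.4 kb and 34.8 kb inside the gene record, the former being the start of the longest coding transcript, while the coding start site at the 5′ end of the record, 53947018, had no peak. The GC content in the 1 kb around the acetylated start site at 53981454 was 65.6%, beside 45.1% at the start site with no peak. A faint peak of 499 bp with a pileup of 8.53 and a false discovery rate of 0.0178, chr5:53916799-53917297, lay upstream of the record, 64.2 kb from the acetylated start site.

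Pileup and length of the 6 TSS peaks were then set beside those of other peaks. By length, 5 of the 6 exceeded the median of all peaks, the exception being Notch2, and their median length was 1920 bp, beside 1080 bp for TSS peaks of protein-coding genes. By pileup, 4 of 6 exceeded the median of all peaks and the median was 16.3, equal to the median of TSS peaks of protein-coding genes at this precision. By fold enrichment, 4 of 6 (Notch1, Notch2, Notch3 and Dll1) lay below the median of all peaks. The 7 peaks without a TSS had a median length of 740 bp and a median pileup of 9.3, with 6 of 7 below the median pileup of all peaks. The 12 peaks at neighbouring genes had pileups of 13.3 to 20.5. High-confidence peaks were 4 of 6 at the genes' own start sites, 11 of 12 at neighbouring genes and 1 of 7 elsewhere, which was 16 of the 25, beside 64.1% of all peaks.

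**Figure D4:**
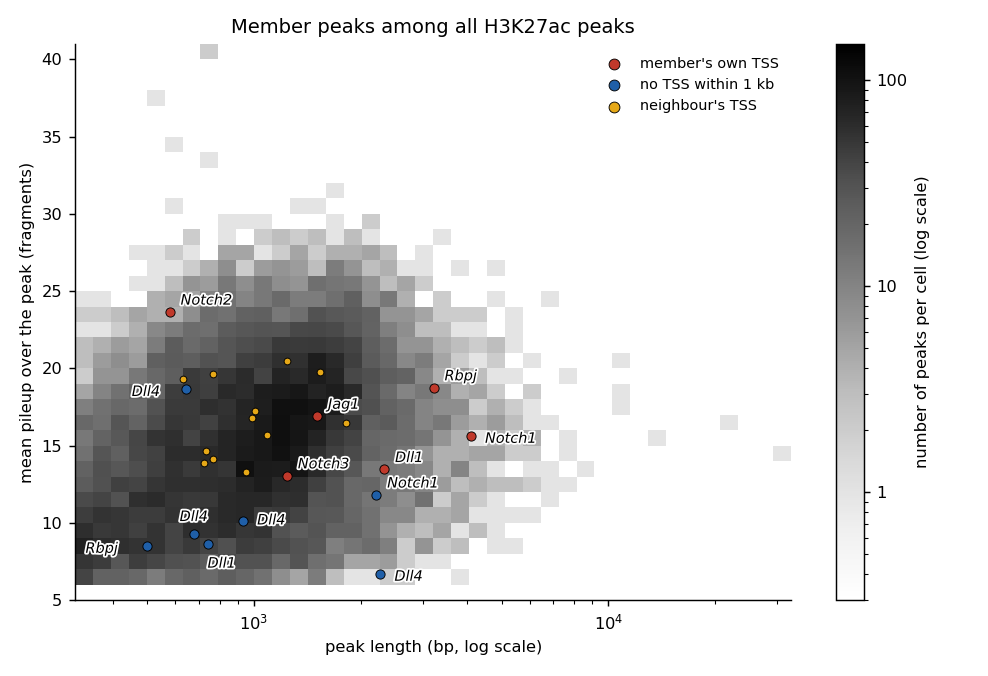
Mean pileup (fragments) against length (bp, log scale) for the 25 peaks, over the number of all 13463 peaks per cell of the plot (grey, log scale); red points are at a start site of the named gene, blue points have no start site within 1 kb and yellow points are at neighbouring genes. Notch1 and Rbpj lie to the right of most peaks by length, Notch2 above most by pileup, and the long Dll4 peak with a pileup of 6.72 at the lower edge.

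The number of peaks per window was also compared with that of other genes. It was 5 at Dll3 and Dll4, 4 at Notch1, 3 at Dll1 and Jag2, 2 at Rbpj and 1 at Notch2, Notch3 and Jag1, beside a median of 1 over protein-coding genes. None of the 9 windows held fewer than that median, which restates that each had at least 1 peak, as did 72.1% of protein-coding genes. At Dll3 and Jag2 all the peaks counted lay at start sites of neighbouring genes. Scaled to window size, Dll4 (4.54 per 100 kb) and Dll3 (4.52) lay at the 94.2th and 94.1th percentiles and Notch2 (0.422) at the 30.8th, beside a median of 0.967. By the length covered by peaks, Notch1 led with 9116 bp (97.8th percentile), beside a median of 1527 bp.

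The motif letters were counted in the 13 peaks that lay at a start site of a member or at no start site, 65 counts in all, and most were ordinary for the length of the peak. At least 1 match was found in 11 of 13 peaks for TGGGAA, 7 for CAGCTG, 7 for CAGATG, 8 for ACAAT and 2 for TAATTA. Among windows of the same length at the centres of all peaks, the share with a match to TGGGAA ran from 31.6% to 97.9%, from the shortest to the longest of the 13 peaks. It ran from 26.4% to 85.0% for CAGCTG, from 19.7% to 93.0% for CAGATG, from 27.4% to 99.2% for ACAAT and from 3.7% to 58.4% for TAATTA. The intron 2 peak of Notch1 held 7 matches to TGGGAA and 6 to CAGATG. As many were found in 0.899% and 0.735% of windows of its length at all peak centres, and in 1.51% and 2.28% of those at peaks with no TSS. Of the 6 CAGATG matches, 4 lie in the 250 bases printed above. The small peak upstream of Dll1 held 3 matches to CAGCTG, and as many were found in 2.1% of windows at all peaks and in 4.06% of those at peaks with no TSS. The printed stretch has 2 of the 3. The long upstream peak of Dll4 held 6 to TGGGAA, 4 to CAGCTG and 2 to TAATTA. As many were found in 3.19%, 5.72% and 9.05% of windows at all peaks, and in 4.9%, 10% and 14.5% of those at peaks with no TSS. The small upstream peak of Rbpj held 2 to ACAAT, with as many in 7.15% and 17.8% of windows. Among the TSS peaks, that of Notch3 held 4 to TGGGAA (as many in 3.72% of windows at all peaks) and that of Rbpj held 7 (5.26%). The highly acetylated downstream peak of Dll4 held a single match, CAGATG on the reverse strand, and none to the other letters. A match describes the sequence and is not a binding site, and the counts given were picked from the 65 for being high for the length of the peak.

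The other genes of the Notch pathway were taken as a list of 57 genes. Of these, 54 had a TSS peak, beside 49.8% of protein-coding genes. At the start site of the transcript with the longest coding sequence 48 had one, beside 47.5% of protein-coding genes. The median pileup of the 54 peaks was 17.1, beside 16.3 for TSS peaks of protein-coding genes. Dlk1 and Dlk2, ligand-like proteins without the DSL domain, and Maml2, a Mastermind co-activator, had no TSS peak, and the nearest peaks lay 34.9, 14.4 and 32 kb from their start sites.

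All 10 targets had a TSS peak, with a median pileup of 13.5, and 8 of the 10 lay below the median of TSS peaks of protein-coding genes. By length, 7 of 10 exceeded the median of all peaks and Hey2, Heyl and Sox9 did not. For 10 genes both counts are near the even split that a median gives. The repressor gene Hes1 had a peak of 4251 bp (rank 114 by length) with a pileup of 14.54. Hes5, a Notch effector of progenitors and glia, had 2421 bp and 16.23, in a peak also within 1 kb of a start site of RP24-89N4.5. Hes6, which opposes Hes1, had 3194 bp and 16.56. The peak of the cyclin gene Ccnd1 was the longest of the list, at 7915 bp (rank 9), with a pileup of 12.43, and that of Myc measured 3416 bp with 12.03. The hairy-related repressor genes were lower or shorter, with 1377 bp and 12.46 at Hey1, 326 bp and 10.52 at Hey2, and 766 bp and 11.08 at Heyl. The start site of the longest coding transcript of Heyl had no peak within 1 kb, and the nearest of any kind was 5.80 kb away. Nrarp, a feedback inhibitor of the Notch complex, had the highest pileup of the targets, 17.68 over 1495 bp. Sox9, which acts in glial development, had 628 bp and 15.5, in a peak also within 1 kb of a start site of BC006965.

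Among the remaining roles, peaks of nuclear co-factors were the highest by median, at 19.6 for 9 of 10 genes, from the histone deacetylase gene Hdac1 (15.25) to the co-activator gene Maml1 (27.17). For ligand endocytosis 7 of 7 genes had a peak with a median of 18.8, from the ubiquitin ligase gene Neurl1a (12.69) to Mib1 (25.67), whose product ubiquitinates Notch ligands. All 10 genes of proteases and gamma-secretase had one, with a median of 17.3, from Aph1c (9.73), a gamma-secretase subunit gene whose peak is also within 1 kb of a start site of Gm17098, to Adam10 (24.78), the protease of the first cleavage. For glycosylation it was 5 of 5 genes with a median of 17.3, from the Fringe gene Mfng (13.82) to the fucosyltransferase gene Pofut1 (21.26), whose peak is also within 1 kb of a start site of Plagl2. For inhibitors and turnover it was 11 of 11 with a median of 17.4, from Bend6 (9.78), in a peak also within 1 kb of a start site of Dst, to the ubiquitin ligase gene Itch (22.22). The start site of the longest coding transcript of Itch had no peak within 1 kb, and the nearest of any kind was 28.5 kb away. Of the other receptor and ligand genes, Notch4 (21.22) and Dner (11.43, in a peak also within 1 kb of a start site of AC123882.1) had one. The start site of the longest coding transcript of Notch4 had no peak within 1 kb, and the nearest of any kind was 21.5 kb away. Set beside the peaks of all these roles, Notch2 (23.66) was within the upper range of the pathway, and Notch3 (13.06) and Dll1 (13.47) lay among its lower values.

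**Figure D5:**
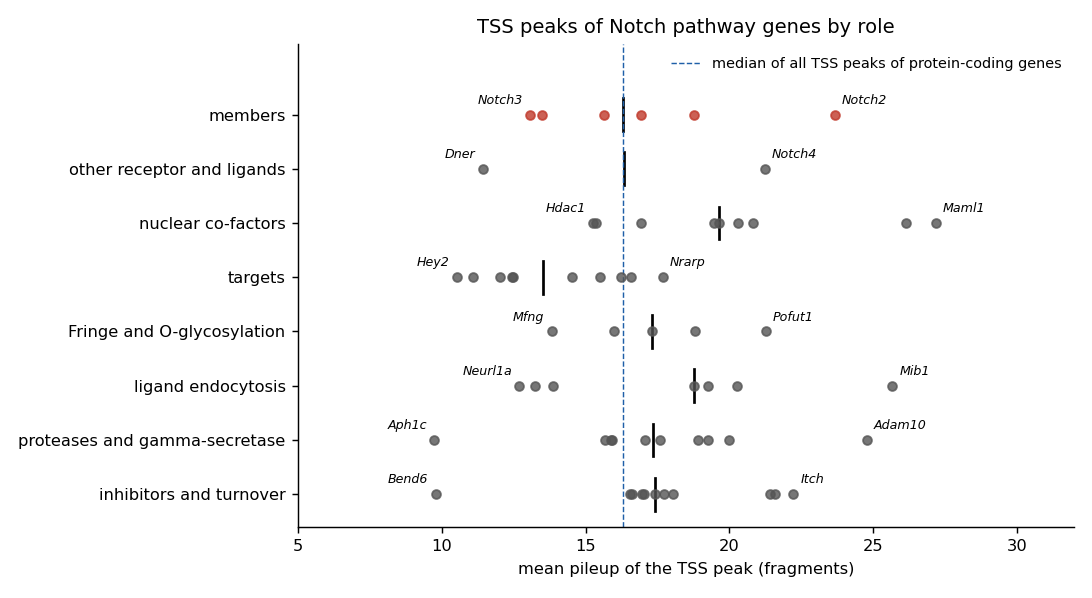
Mean pileup (fragments) of the TSS peaks of the 6 genes described here (red) and of 54 pathway genes by role (grey); each point is a gene, short black lines are medians, and the dashed line is the median of TSS peaks of protein-coding genes, 16.3. The medians of the roles run from 13.5 for targets to 19.6 for nuclear co-factors, and the points of all roles overlap.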

How the data were processed

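The E14 H3K27ac ChIP-Seq peak list was used; the other samples were not analysed here. Per the submitters' processing notes and the study's methods, reads were aligned to mm9 with Bowtie2, and uniquely mappable reads were kept. Per the file headers, MACS 2.1.0.20140616 was run by the authors on the pooled replicates in its broad mode, with a cutoff of 0.1 and no more than 1 tag kept at a position. The deposited pileup is a signal, the mean coverage of a region by fragments after scaling to the control. The deposited fold enrichment is the ratio of ChIP to local control, and the deposited -log10 p and -log10 q values are averages over the region. The false discovery rate given for a peak was converted from its average -log10 q, and the cut-offs were applied to that value. The control level was derived as (pileup + 1) / fold - 1. The depth was 113543038 ChIP and 9210563 control tags, and the shallower control makes low control values coarse.

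Peaks were placed against GENCODE vM1 genes on mm9 (overlap of at least 1 bp), and sequences were read from the mm9 genome. RefSeq names, from another assembly, served to match 1 list gene by an older symbol. Percentiles are the share of peaks or genes at or below a value. One marker gene is not reported here. The members, lists and alternatives were chosen with earlier results of these data known, and the longest coding transcript as the reference start site was chosen after the data were seen. All members were named with all their peaks, all pathway targets, and the genes with the highest and lowest pileup of each other role. Alternatives were stricter peak cut-offs, windows of 20 and 100 kb, other definitions of a TSS peak, joined peaks and other measures of rank. The placement of peaks was tested on made-up peaks, of which 3000 of 3000 around 600 genes were placed as known. Python 3.11.15, numpy 2.4.6, pandas 2.3.3, scipy 1.17.1 and matplotlib 3.10.9 were used.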

Additional observations from a re-analysis of the deposited data

How the results depend on the processing

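No paired analysis was possible because the replicates had been pooled into 1 list. The count of 6 genes with a TSS peak ranged from 4 to 7 over the alternatives: 4 with the stricter peak cut-offs (Notch2 and Notch3 lost, beside 37.8% of protein-coding genes) or with the 5′ end of the gene record alone (Notch1 and Rbpj lost, 47.5%), 5 with a peak over the start base itself (Notch1 lost, 44.2%), and 7 from 5 kb upstream to 1 kb downstream (Dll4 gained, 51.4%). With the start site of the transcript with the longest coding sequence, an alternative added after the data were seen, the count was 6 (47.5% of protein-coding genes). The 25 peaks in the windows became 16 with 20 kb, 42 with 100 kb, 16 with the stricter cut-offs and 21 at a false discovery rate of at most 0.01. Lost at 0.01 were the intron 2 peak of Notch1, the upstream peak of Rbpj and those 11.1 kb and 2.75 kb upstream of Dll4, all without a TSS within 1 kb. The median percentile of the 6 TSS peaks was 59.1 by pileup, 38.1 by fold enrichment, 85.7 by length, 81.4 by length times pileup, and 49.7 by pileup among TSS peaks of protein-coding genes. The median percentile of the windows was 83.2 by number of peaks, 78.0 per 100 kb and 80.1 by the length covered. Pathway genes with a TSS peak numbered 54 in the list as deposited (beside 49.8% of protein-coding genes). They numbered 47 with a peak over the start base (44.2%) and 43 with the stricter cut-offs (37.8%).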
